A study of Mus musculus with 35 samples.

Results

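The genes described here encode the proteins of the mitochondrial ribosome. They were taken as every gene whose symbol starts with Mrpl or Mrps followed by a number, with the 5 pseudogenes of the family left out. That gave 78 genes of the 54752 in the files, 49 with an Mrpl symbol and 29 with an Mrps symbol. By the composition of the mammalian mitoribosome, 51 belong to the large subunit, 26 to the small subunit and 1, Mrps36, to neither.

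The mitochondrial ribosome sits at the inner membrane of the mitochondrion and translates the few messenger RNAs that the mitochondrial genome encodes, all of them for respiratory chain or ATP synthase subunits. Its ribosomal RNAs come from mitochondrial DNA, whereas all of its proteins are encoded in the nucleus, made in the cytosol and imported. Some of these proteins descend from bacterial ribosomal proteins (46 members here), others are found in mitochondria with no bacterial ribosomal counterpart (28 members), and 3 were not classed. Fibroblasts keep a respiratory metabolism, and conversion to pluripotent stem cells is known to be accompanied by a shift towards glycolysis.

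The study measured bulk RNA by sequencing in mouse embryonic fibroblasts under reprogramming with the factors Jdp2, Esrrb, Glis1 and Sall4, together called JEGS. The fibroblasts came from embryos of day 13.5 carrying the Oct4-GFP transgene, sired by CBA/CaJ x C57BL/6J males on dams of a 129 strain, and were used at passage 2. Retroviruses delivered the factors for 48 h, after which the cells were kept in iCD3 medium with Rock inhibitor for up to 7 days. The arms were JEGS (days 2, 4 and 6; 3 libraries) and 4 arms that each lacked one factor, JEGS-Minus-Esrrb, JEGS-Minus-Glis1, JEGS-Minus-Jdp2 and JEGS-Minus-Sall4, each with 1 library on every day from 0 to 7 (8 libraries an arm). The labels conflict in places: the treatment label gives every sample all 4 factors and 72 h in iCD3 medium, against titles and day labels, and the series' text counts 10 samples on 5 of these days from 2 experiments, where 35 libraries are given. All 5 arms carried, by their titles, at least 3 of the retroviruses, and no arm without virus was compared here.

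Total counts per library ran from 1266379 to 3608456. The mitoribosomal genes together held 0.234% to 0.372% of them, and the median member had between 47 and 122 counts in a library. The omitted factor was low in its own arm: Esrrb stood at 6.18 to 70.5 TPM in the arm without it, against at least 594 TPM in every other arm. Glis1 stood at 0 to 8.98 TPM against at least 206, Jdp2 at 10.9 to 43.5 TPM against at least 278, and Sall4 at 0.33 to 7.37 TPM against at least 213. The factors that were kept also differed between arms. Median Esrrb was 1910.5 TPM in JEGS, 2158 without Jdp2, 5980 without Glis1 and 6658 without Sall4. Median Jdp2 was 607 TPM in JEGS, 854 without Esrrb, 1239 without Sall4 and 2593 without Glis1. Medians ran from 651 to 1085 TPM for Glis1 and from 705 to 1286 TPM for Sall4. The part of these levels in the arm comparisons was not tested. No label says that the days of an arm were separate cultures, so p-values reflect how far these libraries spread, which may be partly technical. The labels name a pair of library kits and a pair of sequencing runs without assigning them to samples, so kit or run and arm cannot be told apart. In bulk RNA, fewer cells of a type and less RNA per cell cannot be told apart either.

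The promoters of 6 members that led a change between arms, 1 gene for each direction where the promoter was available, are shown first, because they show how unlike each other the start regions of co-assembled proteins are. Each window is RefSeq sequence of build GRCm38.p6 and runs from 250 bases before to 50 bases after the annotated start, written along the gene's own strand. Mrps6 (ENSMUSG00000039680) is at chr16:92058086-92058385 on the plus strand and Mrpl14 (ENSMUSG00000023939) at chr17:45686099-45686398 on the plus strand. Mrps18a (ENSMUSG00000023967) is at chr17:46110754-46111053 on the plus strand and Mrpl1 (ENSMUSG00000029486) at chr5:96209865-96210164 on the plus strand. Mrpl55 (ENSMUSG00000036860) is at chr11:59202236-59202535 on the plus strand and Mrpl50 (ENSMUSG00000044018) at chr4:49521034-49521333 on the minus strand. Capitals mark the letters GGGCGG (or CCGCCC on the other strand), the core read by SP1, and in Mrps18a the letters AAGATGGCG read by YY1.
Mrps6: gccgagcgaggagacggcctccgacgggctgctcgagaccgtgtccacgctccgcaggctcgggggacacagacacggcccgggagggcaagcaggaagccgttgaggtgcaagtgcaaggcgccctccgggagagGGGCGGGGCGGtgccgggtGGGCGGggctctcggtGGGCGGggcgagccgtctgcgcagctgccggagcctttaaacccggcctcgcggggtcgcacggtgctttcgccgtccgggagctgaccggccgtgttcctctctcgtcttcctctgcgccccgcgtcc
Mrpl14: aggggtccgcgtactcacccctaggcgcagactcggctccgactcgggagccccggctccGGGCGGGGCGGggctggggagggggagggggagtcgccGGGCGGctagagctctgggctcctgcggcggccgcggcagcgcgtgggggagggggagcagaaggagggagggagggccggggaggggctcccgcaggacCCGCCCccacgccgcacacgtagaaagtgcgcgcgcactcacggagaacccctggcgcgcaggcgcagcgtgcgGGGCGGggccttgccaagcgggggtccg
Mrps18a: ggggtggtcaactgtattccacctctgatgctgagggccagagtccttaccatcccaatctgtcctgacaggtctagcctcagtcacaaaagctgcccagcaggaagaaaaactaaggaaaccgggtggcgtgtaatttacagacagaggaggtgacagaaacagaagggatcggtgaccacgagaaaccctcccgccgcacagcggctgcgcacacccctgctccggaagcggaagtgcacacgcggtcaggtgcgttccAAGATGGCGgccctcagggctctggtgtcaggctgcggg
Mrpl1: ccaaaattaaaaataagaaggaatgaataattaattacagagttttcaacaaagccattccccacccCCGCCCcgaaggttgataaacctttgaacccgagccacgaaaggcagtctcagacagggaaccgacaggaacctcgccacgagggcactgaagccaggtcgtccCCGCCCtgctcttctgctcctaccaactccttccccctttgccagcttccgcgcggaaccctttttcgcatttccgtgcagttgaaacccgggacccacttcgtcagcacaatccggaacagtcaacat
Mrpl55: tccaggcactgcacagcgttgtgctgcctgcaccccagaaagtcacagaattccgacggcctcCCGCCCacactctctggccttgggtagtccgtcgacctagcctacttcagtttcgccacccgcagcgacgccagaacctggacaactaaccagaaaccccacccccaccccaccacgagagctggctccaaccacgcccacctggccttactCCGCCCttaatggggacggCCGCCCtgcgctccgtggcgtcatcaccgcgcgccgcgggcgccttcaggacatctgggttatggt
Mrpl50: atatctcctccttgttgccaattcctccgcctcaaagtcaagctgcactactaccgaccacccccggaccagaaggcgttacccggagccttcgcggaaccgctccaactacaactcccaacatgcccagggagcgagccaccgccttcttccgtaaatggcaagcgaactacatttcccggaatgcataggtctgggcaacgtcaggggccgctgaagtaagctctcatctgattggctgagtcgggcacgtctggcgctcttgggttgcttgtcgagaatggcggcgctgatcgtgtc

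Mrps6 and Mrpl14 carried several copies of the SP1 letters, Mrpl1 and Mrpl55 carried scattered single copies, Mrps18a carried the YY1 letters just after its start, and the Mrpl50 window held none of the 8 motifs searched. Of the 78 members, 69 had a promoter in the RefSeq table, and each motif was searched on both strands. The YY1 letters AAGATGGCG were in 8 of the 69 windows (11.6%), against 1.64% of the windows of all genes and 2.14% of those of protein-coding genes. The ETS letters CCGGAAGT, read by GABPA, were in 12 (17.4%), against 4.31% of all and 5.69% of protein-coding windows. The NRF1 letters GCGCATGC were in 8 (11.6%), against 3.05% of all and 3.93% of protein-coding windows. NRF1 and GABPA are known as regulators of nuclear genes for mitochondrial proteins. The SP1 letters were as common in members as in protein-coding genes, in 34 windows (49.3%) against 49.2%. The E-box CACGTG was in 5 (7.25% against 8.91% of protein-coding windows), the AP-1 letters TGAGTCA in 2 (2.9% against 5.4%) and the CRE letters TGACGTCA in 2 (2.9% against 2.54%). The letters TCAAGGTCA, read by ESRRB and its relatives, were in 0 of the 69 windows and in 0.38% of protein-coding windows. None of the 8 strings contains another, although copies of the SP1 letters may overlap each other, and a match describes the letters of the window, not binding.

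Many members start close to a neighbour. A protein-coding gene started head to head within 1000 bases of 33 of the 78 members (42.3%), against 2384 of all 21951 protein-coding genes (10.9%). The partners include other mitochondrial genes: Mrpl43 faces Twnk, the mitochondrial DNA helicase, Mrps12 faces Sars2, the mitochondrial seryl-tRNA synthetase, Mrpl36 faces Ndufs6 and Mrpl47 faces Ndufb5, both of complex I, and Mrpl46 faces Mrps11. Of the 33 members with such a neighbour, 9 passed the test without Esrrb and 16 of the partners did, both in the same direction in 1 pair and in opposite directions in 1. Without Glis1, 7 members and 15 partners passed, with 2 pairs in the same and 2 in opposite directions. Without Jdp2, 2 members and 13 partners passed, with 0 pairs in the same direction and 1 in opposite directions. Without Sall4, 8 members and 14 partners passed, with 4 pairs in the same and 2 in opposite directions. For the common slope with the day, 10 members and 9 partners passed, with 4 pairs in the same and 1 in opposite directions. The shares of all genes that passed, higher and lower, were 20.9% and 21.9% without Esrrb, 20% and 16.3% without Glis1, 14.4% and 9.13% without Jdp2, 22.3% and 19.5% without Sall4, and 15.4% and 15.8% for the slope, by the tests described further on.

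All 78 members were expressed. Their TPM summed to between 4593 and 6711 in a library, and 77 of the 78 were above 0 in all 35 libraries; Mrpl23 was at 0 in 1 library without Jdp2. Per length, Mrpl52, a mitochondria-specific protein of the large subunit, was the highest, with a median of 314 TPM (198 to 475 over the libraries). Mrps21, the counterpart of bacterial S21 in the small subunit, followed with 249 TPM (172 to 380), then Mrpl17 with 189 TPM (121 to 265), Mrpl42 with 182 TPM (109 to 271) and Mrpl54 with 162 TPM (82.6 to 253). The ranges of these neighbours overlapped. At the low end stood Mrpl1, of the mobile L1 stalk which moves spent tRNA out, with a median of 6.61 TPM (2.58 to 11.8). Mrpl23 had 9.96 TPM (0 to 27.8), Mrpl19 11.1 TPM, Mrpl11 12.5 TPM and Mrpl47 17.4 TPM. Expected counts of Mrpl23, Mrpl19 and Mrpl47 were not whole numbers in 32, 34 and 35 of the 35 libraries. Their effective lengths varied 7.82, 2.9 and 4.5 times between libraries, so the levels of these 3 genes are less certain. The ranges of Mrpl52 and Mrpl1 lay far apart.

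Members with related roles also differed in level. Mrpl12, which forms the flexible stalk that recruits translation factors, had 149 TPM, while Mrpl10, its base, had 73.0 TPM. Of the 3 paralogs of bacterial S18, Mrps18a, which is built into the large subunit despite its name, had 115 TPM (52.9 to 206) and Mrps18b had 108 TPM (49.2 to 139). Mrps18c had 38.5 TPM (23.6 to 66.7). Mrps30, also a large-subunit protein in spite of its symbol, had 20.2 TPM, and Mrps36, now assigned to the oxoglutarate dehydrogenase complex, had 81.1 TPM.

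**Figure D1:**
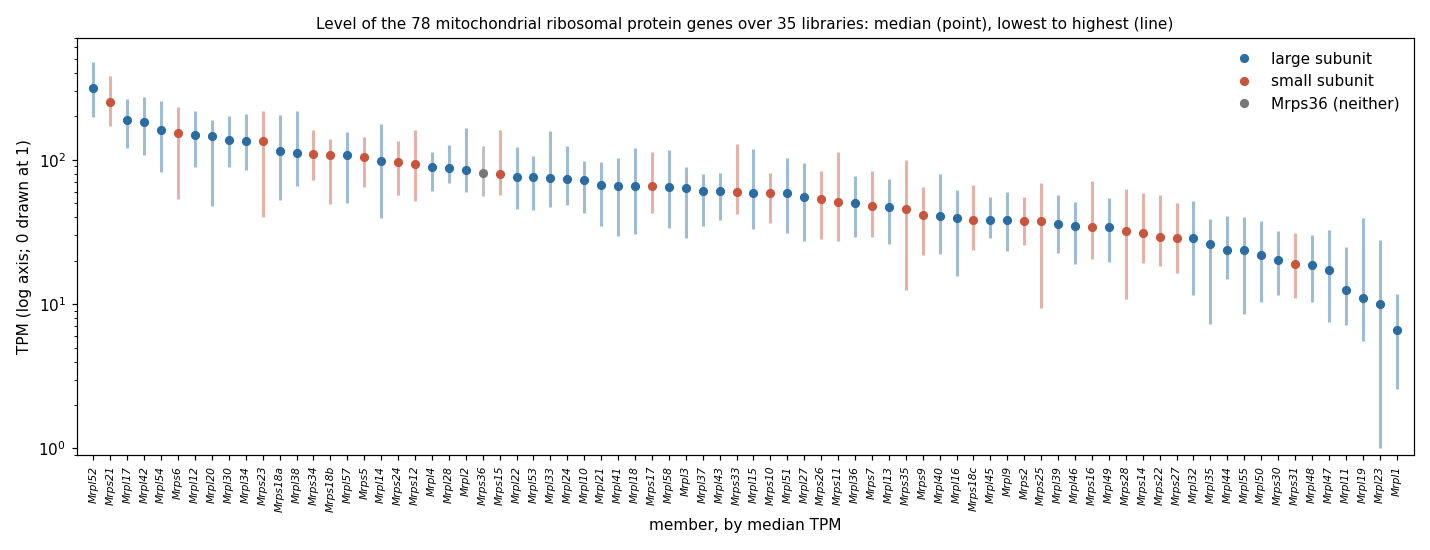
TPM of each of the 78 members on a log axis, ordered by median, with a point at the median over the 35 libraries, a line from the lowest to the highest library and colours for the subunits. Mrpl52 (median 314 TPM) and Mrps21 (249 TPM) stand at the left and Mrpl1 (6.61 TPM) at the right, with genes of both subunits throughout.

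The summed level of the family moved little between arms. In CPM, a library's counts scaled to a common total over all 35 libraries with no correction for gene length, the members of JEGS summed to 3436 on day 2, 3031 on day 4 and 3047 on day 6. In the arm without Esrrb the median sum was 3020 CPM (2509 to 3689). They were 3230 (2740 to 3681) without Glis1, 2909 (2654 to 3239) without Jdp2 and 3166 (2667 to 3614) without Sall4. The ranges of the arms overlapped throughout. In summed TPM the medians were 5623 in JEGS, 5882 without Esrrb, 5790 without Glis1, 5477 without Jdp2 and 5595 without Sall4. The order of the arms thus depended on the unit and the scaling. Days of 1 arm differed by as much as arms did: without Glis1 the sum was 3681 CPM on day 1 against 2740 CPM on day 0, and without Sall4 it was 3614 CPM on day 1 against 2667 CPM on day 0. The arm without Esrrb was the other way round, highest on day 0 (3689 CPM) and lowest on day 7 (2509 CPM). The summed TPM of the small subunit over that of the large lay between 0.442 and 0.559, with medians of 0.477 in JEGS, 0.482 without Esrrb, 0.498 without Glis1, 0.527 without Jdp2 and 0.516 without Sall4.

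**Figure D2:**
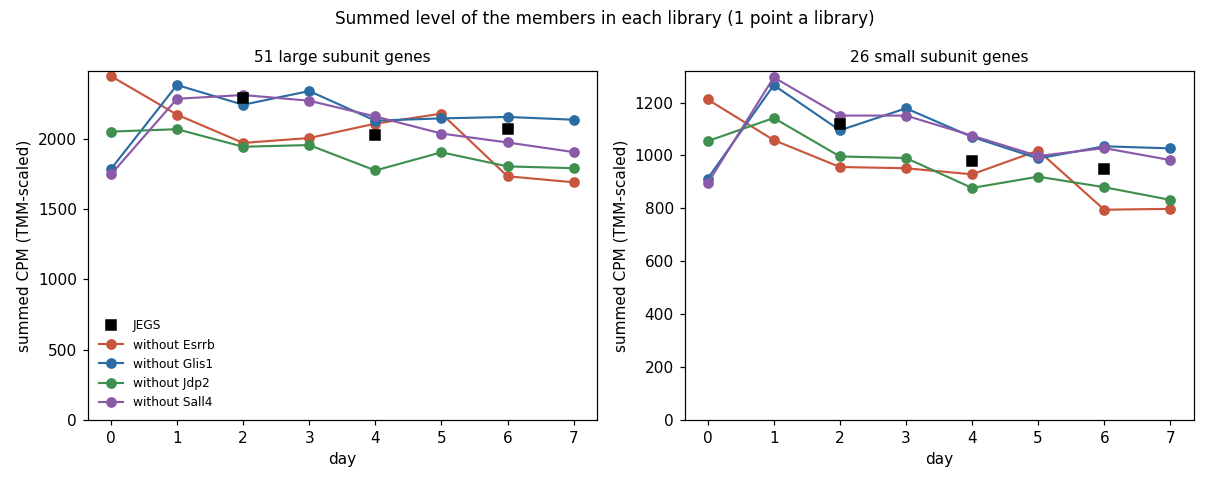
Summed CPM of the 51 large-subunit and the 26 small-subunit genes by day, with 1 point a library, a line for each leave-out arm and squares for JEGS. The arms overlap; the small subunit is at 1266 CPM on day 1 and 912 CPM on day 0 without Glis1, at 1295 and 894 CPM without Sall4, and highest on day 0 (1212 CPM) without Esrrb.

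Arms that lacked a factor differed in individual members, in both directions, while the median change of the family stayed near 0. For each leave-out arm, the average of the 3 others served as the comparison, with day as a factor, by edgeR's quasi-likelihood test with Benjamini-Hochberg adjustment over all 18135 genes tested and a threshold of 0.05. The 4 contrasts share libraries and sum to 0, so a member high in one arm is low in the mean of the others. Changes of members were small: without Esrrb the median absolute log2 change was 0.20, against 0.51 over all genes. These medians were not matched for expression level, and all genes with at least 1 CPM in at least 3 libraries were tested. Of the 78 members, 31 passed in none of the 4 contrasts, 23 in 1, 19 in 2, 4 in 3 (Mrpl14, Mrpl38, Mrps21 and Mrps24) and 1, Mrps23, in all 4. The same tally was not made over all genes, of which 20.9% were higher and 21.9% lower without Esrrb alone. It is therefore no result about the family. With limma on log2(TPM + 1), Mrps23 lost the call without Esrrb (log2 -0.37, limma adjusted p = 0.0764), without Jdp2 (-0.28, 0.258) and without Sall4, where its sign turned (0.44 by edgeR, -0.015 by limma, adjusted p = 0.957).

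Without Esrrb, 16 members fell and 9 rose relative to the other arms, led by the small-subunit genes Mrps6 and Mrps23 downward and Mrpl50 upward. The shares are 20.5% and 11.5% of members, against 21.9% of all genes lower and 20.9% higher, and the members' median log2 change was -0.03 (all genes -0.01). Mrps6, the counterpart of bacterial S6, had 23.7 to 69.1 CPM in the 8 libraries without Esrrb (median 36.0), against 47.5 to 110.5 CPM (median 79.3) in the 24 others, a log2 change of -1.07 ± 0.16 (SE, edgeR adjusted p = 4.55e-06). All 8 libraries lay below the median of the others, although the ranges overlapped. Mrps23, a mitochondria-specific protein of the small subunit, had 15.5 to 48.6 CPM (median 27.3) against 23.6 to 71.0 CPM (median 49.8), log2 -0.70 ± 0.14 (edgeR adjusted p = 0.000116). Mrpl14, the counterpart of bacterial L14, had a median of 21.9 CPM against 36.4 CPM, log2 -0.63 ± 0.14 (edgeR adjusted p = 0.000621). Mrps36 (log2 -0.51 ± 0.12) and Mrpl16 (-0.50 ± 0.16) also fell.

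Among the members that rose without Esrrb, Mrpl50 had 31.1 to 46.7 CPM (median 35.6), against 15.4 to 48.5 CPM (median 27.9) in the other arms, log2 0.41 ± 0.12 (edgeR adjusted p = 0.00683). All 8 libraries lay above the median of the others. Mrps9 (log2 0.39, edgeR adjusted p = 0.0114), Mrpl15 (0.38, 0.0099), Mrps15 (0.31, 0.00893) and Mrps18a (0.28, 0.0334) followed, the first 3 of them counterparts of bacterial ribosomal proteins of the same numbers. By subunit, 11 large-subunit genes fell and 7 rose, and 4 small-subunit genes fell and 2 rose. The split depended on the scaling: scaling by total counts alone gave 19 higher and 8 lower, limma on log2(TPM + 1) gave 20 and 8, upper-quartile scaling 15 and 9 and DESeq2 size factors 13 and 12. All 9 higher members kept their call under total-count, upper-quartile and DESeq2 size-factor scaling, and 8 of the 16 lower members did.

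Without Glis1, 16 members rose and 2 fell, led upward by Mrpl14 and Mrps23, which both fell without Esrrb. Of all genes, 20% were higher and 16.3% lower, so the share higher (20.5%) is that of the background and the share lower (2.56%) is under it. The median log2 change was 0.09 over members and 0.01 over all genes. Mrpl14 had 28.0 to 56.9 CPM without Glis1 (median 53.4), against 17.5 to 44.1 CPM (median 26.3) in the others, log2 0.83 ± 0.13 (edgeR adjusted p = 5.49e-06). All 8 libraries lay above the median of the others. Mrps23 had 46.8 to 71.0 CPM (median 61.7) against 15.5 to 64.3 CPM (median 37.9), log2 0.68 ± 0.12 (edgeR adjusted p = 4.53e-05). The mitochondria-specific Mrpl52, the most highly expressed member, had 56.2 to 73.6 CPM (median 65.6) against 32.3 to 73.4 CPM (median 47.0), log2 0.50 ± 0.10 (edgeR adjusted p = 0.000197). Mrpl41 (log2 0.57, edgeR adjusted p = 0.0017) and Mrps36 (0.43, 0.00202) rose as well. Mrpl55 fell, with 4.69 to 12.01 CPM (median 8.26) against 5.73 to 18.1 CPM (median 13.1), log2 -0.58 ± 0.16 (edgeR adjusted p = 0.0066), and so did Mrpl36, the counterpart of bacterial L36 (log2 -0.31, edgeR adjusted p = 0.0324). By subunit, 9 large-subunit genes rose and 2 fell, and 6 small-subunit genes rose and 0 fell. With limma on log2(TPM + 1) the split was 7 higher and 7 lower.

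Without Jdp2, 8 members fell and 0 rose, against 9.13% of all genes lower and 14.4% higher; 10.3% of members were lower. The 8 were 6 large-subunit and 2 small-subunit genes, and the median log2 change was -0.09 over members. Mrps18a fell the most, with 26.4 to 54.3 CPM (median 44.3) without Jdp2 against 29.1 to 92.6 CPM (median 66.0) in the others, log2 -0.52 ± 0.11 (edgeR adjusted p = 0.000842). All 8 libraries lay below the median of the others. Mrps24 had 32.6 to 44.2 CPM (median 39.2) against 26.5 to 69.2 CPM (median 57.1), log2 -0.42 (edgeR adjusted p = 0.00844). Mrpl14 (-0.46, 0.0145), Mrps23 (-0.42, 0.0163) and Mrpl52 (-0.40, 0.00552) completed the leading genes. The 8 calls held under all 3 other scalings of the counts, while limma on log2(TPM + 1) gave 5 lower and 1 higher and scaling by total counts 8 lower and 1 higher. Leaving out day 0 gave 13 lower and 1 higher.

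Without Sall4, 16 members rose and 10 fell, led by the large-subunit genes Mrpl54 and Mrpl55 upward and Mrpl1 and Mrpl15 downward. Of all genes, 22.3% were higher and 19.5% lower, against 20.5% and 12.8% of members, and the members' median log2 change was 0.04. Mrpl54 had 46.3 to 77.2 CPM without Sall4 (median 67.1), against 22.5 to 73.0 CPM (median 44.0) in the others, log2 0.58 ± 0.13 (edgeR adjusted p = 0.000463). All 8 libraries lay above the median of the others. Mrpl55, which fell without Glis1, had 9.81 to 17.5 CPM (median 14.8) against 4.69 to 18.1 CPM (median 8.94), log2 0.57 (edgeR adjusted p = 0.00266). Mrps6 (log2 0.51, edgeR adjusted p = 0.00476), Mrpl34 (0.47, 0.00112) and Mrps24 (0.46, 0.00116) rose too.

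In the other direction, Mrpl15, the counterpart of bacterial L15, had 23.9 to 43.5 CPM without Sall4 (median 33.4), against 34.5 to 66.8 CPM (median 45.6) in the others, log2 -0.47 (edgeR adjusted p = 0.00273). All 8 libraries lay below the median of the others. Mrpl1 (log2 -0.47, edgeR adjusted p = 0.0178), Mrpl40 (-0.44, 0.00694), Mrps9 (-0.44, 0.00715) and Mrpl44, an RNase III-like protein of the large subunit (-0.41, 0.0132), fell as well. By subunit, 9 large-subunit genes rose and 8 fell, and 7 small-subunit genes rose and 2 fell. This split also depended on the scaling: total counts alone gave 9 higher and 23 lower, upper-quartile scaling 11 and 17 and limma on log2(TPM + 1) 8 and 16. All 10 lower members kept their call under the 3 other count scalings, as did 9 of the 16 higher ones. Total-count scaling moved the median log2 change of all genes to 0.13 without Esrrb, to -0.14 without Sall4, to 0.11 on day 1 and to 0.15 in JEGS against the arm without Sall4.

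**Figure D3:**
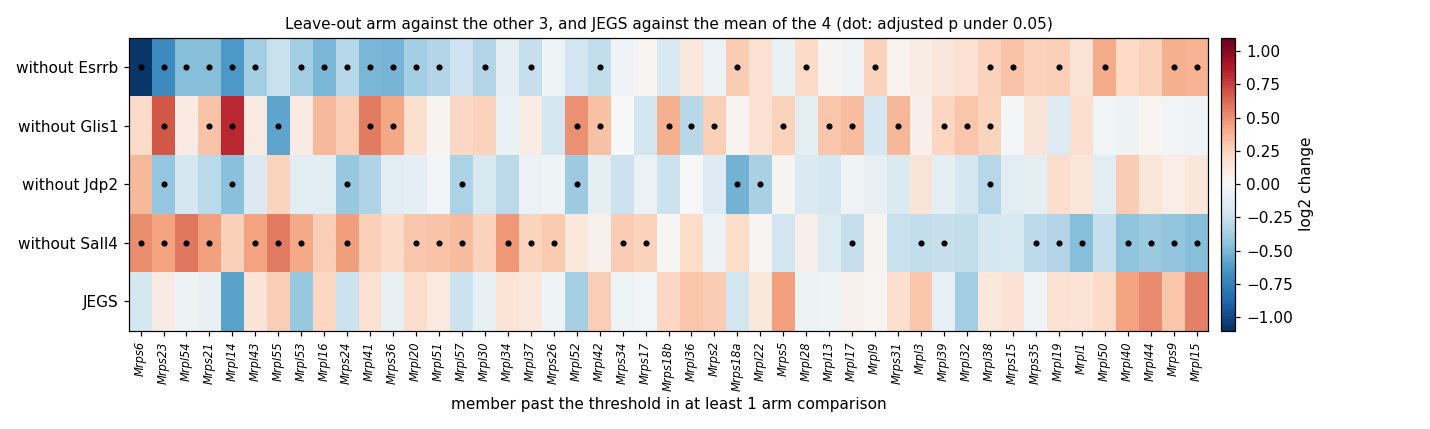
Log2 change, as colour, of the members past the threshold in at least 1 leave-out arm (columns) in each arm set against the other 3 and, in the bottom row, in JEGS against the mean of the 4, with a dot for an edgeR adjusted p under 0.05. Mrps6 (-1.07) and Mrps23 (-0.70) are low without Esrrb, Mrpl14 (0.83) and Mrps23 (0.68) high without Glis1, Mrps18a (-0.52) low without Jdp2 and Mrpl54 (0.58) high without Sall4.

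Gene length moved with some of these changes among members. Over the 78 members, Spearman's rho between transcript length and log2 change was 0.45 without Esrrb, -0.17 without Glis1, 0.28 without Jdp2 and -0.50 without Sall4, against -0.03, -0.03, 0.02 and 0.03 over the 18135 genes. In JEGS against the arm without Sall4 it was 0.56 over members and -0.01 over all 16603 genes. These are correlations across genes, which share libraries and are not independent replicates. Split at the median length of 1074 bases, the 39 shorter members held 12 of the 16 that fell without Esrrb and the 39 longer held 4, while 3 shorter and 6 longer members rose. Without Sall4, 12 shorter and 4 longer members rose, and 2 shorter and 8 longer members fell. Mean fragment length, as the deposited effective lengths give it, was 199 to 202 bases in JEGS, 201 to 205 without Esrrb, 201 to 212 without Glis1, 206 to 209 without Jdp2 and 207 to 212 without Sall4. With effective lengths as offsets the counts were 8 higher and 14 lower without Esrrb and 9 higher and 4 lower without Sall4. The part of fragment length in these results was not tested beyond that fit.

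**Figure D4:**
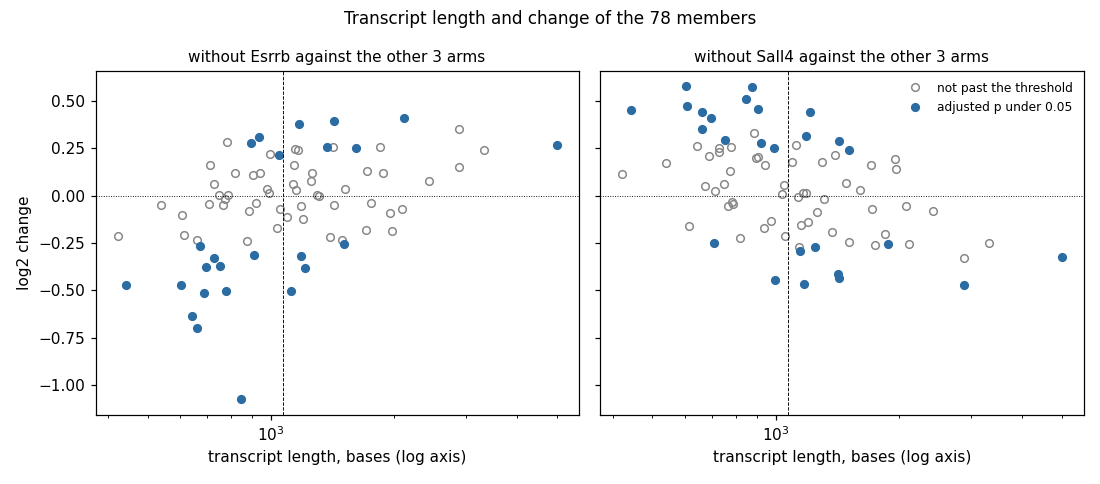
Log2 change of each member (vertical axis) against its median transcript length in bases (log axis), in the arms without Esrrb (left) and without Sall4 (right), with filled points for members past the threshold and a dashed line at the median length. Shorter members lie lower without Esrrb (rho 0.45) and higher without Sall4 (rho -0.50).

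Some of the named genes share exon bases with a neighbour, and the strandedness of the libraries is not stated, so reads of the pair may not be told apart. Mrps25 shares 69.8% of its exon bases with Nr2c2, Mrpl53 88% with Gm42688 and Mrpl19 36% with Gcfc2. Mrps34 shares 63.4% with Mapk8ip3 on the opposite strand and 37% with Nme3 on its own strand. Smaller shares are Mrpl24 with Rrnad1 (26.3%), Mrps24 with Urgcp (15.4%), Mrpl14 with Tmem63b (11.2%), Mrps6 with Slc5a3 (10.4%) and Mrpl44 with Wdfy1 (7.66%). Nme3, Gm42688, Urgcp and Slc5a3 lie on the strand of the member, so stranded libraries would not separate these pairs either. In all, 33 of the 78 members share exon bases with another gene, 23 of them with a protein-coding one, and the values of these genes are uncertain to that extent. The effective length RSEM assigned also varied between libraries, by more than 1.5 times in 28 members, and by 3.11 times in Mrps23 (318 to 989 bases), so the TPM of such members varies with the isoform estimate.

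With all 4 factors, no member passed the test against the mean of the leave-out arms. JEGS was compared on days 2, 4 and 6 in a fit of 15 libraries (16603 genes). Against the mean of the 4 leave-out arms, 0 members passed in either direction by edgeR, against 3.21% of all genes higher and 0.849% lower; 10 members had an unadjusted p under 0.05. The median log2 change of members was 0.11 (all genes 0.02). Against the arm without Jdp2, 0 members passed (0.819% of all genes were higher and 2% lower) and 8 had an unadjusted p under 0.05. Of the 78 log2 changes 65 were positive, with a median of 0.20 (all genes 0.02). The shares of all genes with an unadjusted p under 0.05 were not counted, so the 10 and the 8 members are no result about the family. DESeq2 and limma gave 0 calls in these comparisons too.

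Against single arms a few members passed. Against the arm without Glis1, where 9.86% of all genes were higher and 10% lower, 1 member was higher and 2 were lower. Mrpl14 had 21.6, 12.3 and 28.8 CPM in JEGS on days 2, 4 and 6, against 50.5, 54.1 and 52.7 CPM without Glis1, log2 -1.35 ± 0.28 (edgeR adjusted p = 0.00306). The groups did not overlap. Mrpl52 had 46.4, 40.9 and 29.4 CPM in JEGS, against 71.5, 62.0 and 61.1 CPM without Glis1, log2 -0.76 ± 0.18 (edgeR adjusted p = 0.00688), again without overlap. Mrps27, a pentatricopeptide-repeat protein of the small subunit, had 43.3, 36.4 and 45.04 CPM in JEGS, against 30.0, 27.5 and 25.95 CPM without Glis1, log2 0.58 ± 0.19 (edgeR adjusted p = 0.0431). All 3 JEGS libraries were higher than each of the 3 without Glis1. Leaving out day 4 gave 0 calls in this comparison and leaving out day 6 gave 1. Of 18 fits that left out 1 library or 1 day, the call of Mrps27 held in only 2. Those of Mrpl14 and Mrpl52 held in 17 and 16.

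Against the arm without Esrrb, where 4.04% of all genes were higher and 2.6% lower, Mrps23 alone passed. It had 53.3, 44.8 and 26.9 CPM in JEGS, against 28.6, 24.4 and 15.5 CPM without Esrrb, log2 0.87 ± 0.25 (edgeR adjusted p = 0.0439). The groups overlapped, since JEGS on day 6 lay under the arm without Esrrb on day 2. Its sign turned with limma on log2(TPM + 1) (-0.22) and with effective length offsets (-0.064), and its call was lost on leaving out any 1 of these libraries: JEGS day 2 or 4, without Esrrb day 2, 4 or 6, without Glis1 day 4, without Jdp2 day 4 or 6, or without Sall4 day 4 or 6. It was also lost on leaving out all libraries of day 2, 4 or 6, so that it held in 5 of 18 such fits. Against the arm without Sall4, where 11.9% of all genes were higher and 11.9% lower, 5 members were higher and 3 lower. Mrpl44 had 29.4, 31.9 and 27.5 CPM in JEGS, against 15.1, 21.9 and 13.7 CPM without Sall4, log2 0.85 ± 0.27 (edgeR adjusted p = 0.0311), and the groups did not overlap. Mrpl15 had 44.8, 54.9 and 81.3 CPM against 43.5, 28.7 and 32.7 CPM (log2 0.81 ± 0.23, edgeR adjusted p = 0.0185). Mrps6 had 61.8, 70.6 and 39.4 CPM in JEGS against 92.1, 84.8 and 110.5 CPM without Sall4 (log2 -0.74 ± 0.23, edgeR adjusted p = 0.0295). The 8 calls became 5 on leaving out the JEGS library of day 2, 2 for day 4 and 1 for day 6, and 4, 3 and 1 on leaving out the library without Sall4 of days 2, 4 and 6. Leaving out a whole day gave 3 for day 2, 0 for day 4 and 2 for day 6, and scaling by total counts gave 11 higher and 0 lower.

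Few members passed between day 0 and day 1, and no more than among all genes. On day 1, relative to day 0 over the 4 leave-out arms (4 libraries each), 5 members rose and 1 fell. These are 6.41% and 1.28% of members, both under the 7.59% of all genes higher and 6.32% lower. Of the 78 log2 changes 56 were positive, with a median of 0.16 (all genes 0.04). Mrps34 had 74.6, 81.0, 74.9 and 76.2 CPM on day 1, against 58.5, 35.003, 44.8 and 38.5 CPM on day 0 (in the order without Esrrb, Glis1, Jdp2 and Sall4). Its log2 change was 0.80 ± 0.17 (edgeR adjusted p = 0.00178), and every day 1 library exceeded every day 0 library. Mrpl38 had 114, 116, 85.6 and 80.1 CPM on day 1 against 75.9, 60.6, 56.3 and 55.8 CPM on day 0 (log2 0.67, edgeR adjusted p = 0.0012), also without overlap. Mrps18a had 62.2, 55.0, 47.9 and 49.1 CPM on day 1 against 41.8, 29.1, 26.4 and 32.4 CPM on day 0 (log2 0.75, edgeR adjusted p = 0.00812).

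Mrps12, which lies at the decoding centre of the small subunit, had 39.1, 36.0, 56.5 and 50.8 CPM on day 1 against 40.2, 18.2, 32.2 and 19.0 CPM on day 0 (log2 0.75, edgeR adjusted p = 0.0235). It did not rise in the arm without Esrrb. Mrps25 had 50.9, 66.0, 52.8 and 64.9 CPM on day 1 against 45.6, 34.5, 38.5 and 48.0 CPM on day 0 (log2 0.49, edgeR adjusted p = 0.0292). Mrps15 fell, with 55.1, 46.0, 39.3 and 46.3 CPM on day 1 against 84.3, 69.5, 65.5 and 53.6 CPM on day 0 (log2 -0.54, edgeR adjusted p = 0.027). The count moved with 1 library: leaving out the day 0 library without Esrrb raised it to 15 higher, with 0 lower. Fibroblast markers moved with the day, since 7 of 10 fell on day 1 and 0 rose (6.32% of all genes were lower and 7.59% higher). Their summed level was highest on day 0, between 17329 and 33187 CPM. The part of these markers in the members' results on day 1 was not tested.

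Over days 0 to 7, 21 of the 78 members fell with the day, 2 rose and 55 did not pass. These counts are for the common slope, which is the mean of the slopes fitted separately in the 4 arms. The slopes of the single arms are given below. The background was 15.8% of all genes falling and 15.4% rising; 26.9% of members fell. The median slope was -0.03 log2 units a day over members and 0.01 over all genes, and 15 of the 78 slopes were positive. Of the 21, 13 belonged to the large subunit and 8 to the small. Mrpl20, the counterpart of bacterial L20, had means over the 4 arms of 66.2, 71.5, 58.1, 63.5, 57.8, 50.8, 40.6 and 40.3 CPM on days 0 to 7, a slope of -0.13 ± 0.02 (edgeR adjusted p = 1.46e-05). Mrpl3, the counterpart of bacterial L3, had 61.7, 54.1, 48.8, 47.5, 44.3, 45.9, 40.8 and 36.8 CPM, a slope of -0.09 ± 0.01 (edgeR adjusted p = 2.14e-05). Both were lowest on day 7.

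Mrps7 (slope -0.08, edgeR adjusted p = 0.00232), Mrps15 (-0.08, 0.0048) and Mrps11 (-0.08, 0.0126), which have bacterial counterparts in the small subunit, were called as well. The call of Mrps15 rested on day 0: its means were 68.2 CPM on day 0, 46.7 on day 1 and 36.5 to 41.6 from day 2 on, and without day 0 its slope was -0.02 (edgeR adjusted p = 0.517). The 2 with a positive slope were Mrps18a (0.07, edgeR adjusted p = 0.0341) and Mrpl24 (0.06, 0.0366). Mrps18a also rested on day 0, with 32.4 CPM on that day and 53.5 to 72.0 CPM from day 1 on; without day 0 its slope was 0.01 (edgeR adjusted p = 0.838). Leaving out single libraries or days kept the call of Mrps18a in 26 of 40 cases and that of Mrpl24 in 22 of 40. Under the 3 other scalings 15 of the 21 lower calls held. Leaving out day 1 or day 6 left 14 falling and 1 rising.

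**Figure D5:**
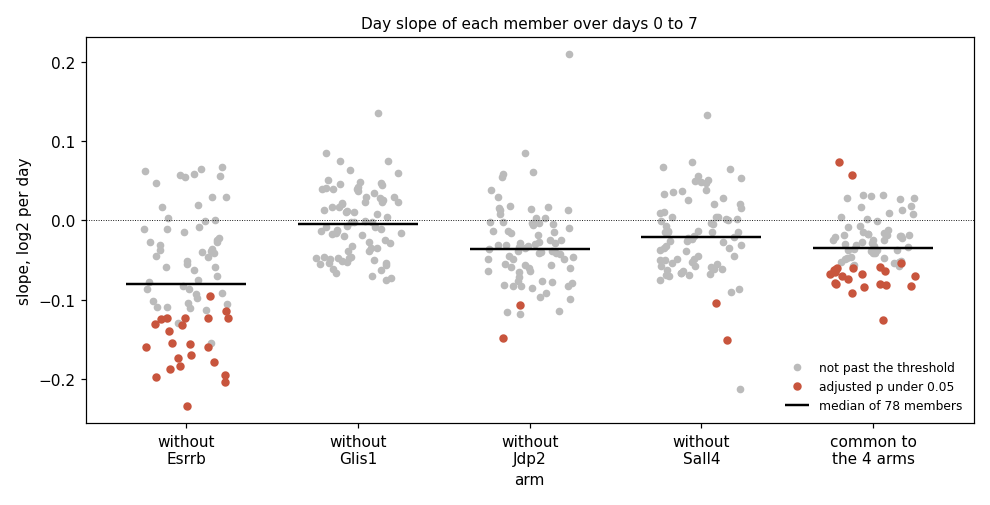
Slope with the day, in log2 units a day, of each of the 78 members in the 4 leave-out arms and as the mean of these 4 slopes (common). Red points mark an edgeR adjusted p under 0.05 and a bar marks the median. The median is -0.08 without Esrrb, where 23 members are below 0 and past the threshold, and -0.03 for the common slope, where 21 are.

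The slope of each single arm, from the same fit, was also tested. Without Esrrb, 23 members fell with the day and 0 rose, against 10.5% of all genes falling and 8.71% rising, with a median slope of -0.08. Without Glis1, 0 members passed (4.01% of all genes fell and 3.86% rose), without Jdp2 2 fell (4.49% of all genes fell and 5.19% rose) and without Sall4 2 fell (5.57% of all genes fell and 3.73% rose). In the arm without Esrrb, Mrps6 had 69.1, 43.8, 42.0, 46.7, 30.0, 23.7, 24.8 and 27.6 CPM on days 0 to 7, a slope of -0.20 ± 0.04 (edgeR adjusted p = 0.00107), and Mrpl20 had a slope of -0.23 ± 0.04 (edgeR adjusted p = 0.00021). Mrpl3 and Mrpl20 were the 2 that fell without Jdp2, and Mrpl3 and Mrpl21 the 2 that fell without Sall4. Without the day 0 library of the arm without Esrrb, 12 members fell and 1 rose, and without its day 6 library 14 fell; leaving out day 6 in all arms left 10, and day 7 left 13. Total-count scaling gave 12 falling and 1 rising.

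The slope of an arm minus the average slope of the 3 others was tested as well. Without Esrrb, 5 members had a lower slope and 0 a higher one, against 3.95% of all genes lower and 2.69% higher: Mrps6 (difference -0.21 ± 0.05, edgeR adjusted p = 0.00922), Mrpl54 (-0.18 ± 0.05, 0.0345), Mrpl51 (-0.17, 0.018), Mrps24 (-0.14, 0.0437) and Mrpl10 (-0.12, 0.0445). Without Glis1, 2 had a higher slope, Mrps18b (0.16 ± 0.04, edgeR adjusted p = 0.0388) and Mrpl17 (0.13 ± 0.03, 0.0188), against 2.07% of all genes higher and 1.48% lower. Without Jdp2 and without Sall4, 0 members differed by edgeR; of all genes 0.105% were higher and 0.0221% lower without Jdp2, and 0.739% higher and 1.1% lower without Sall4. These calls were few and moved easily: with days 1 to 7 only, the 5 lower calls without Esrrb were all lost and 1 other member had a higher slope, while the arm without Glis1 gave 1 higher. Leaving out a library of the arm without Esrrb gave 1 for day 0 or day 6, 3 for day 1, 2 or 7 and 9 for day 5, and libraries of the other arms gave as few as 2. Without Glis1, leaving out that arm's library of day 0 or day 6 gave 0.

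Members were correlated with the rest of the family to differing degrees. The Pearson correlation of each member's log2(TPM + 1) with the mean of the other members over the 35 libraries, which share arm, day and depth, had a median of 0.30; it was over 0.5 in 15 members and under 0 in 6. The stalk protein gene Mrpl12 (0.71), Mrpl18 (0.72) and Mrps26 (0.69) followed the family most closely. Mrpl14 (-0.33), Mrps36 (-0.29) and Mrpl24 (-0.17) followed it least. Low counts (a median of 9.74 a library for Mrpl23) and isoform estimates that vary between libraries can lower such a correlation. Their part was not tested, and no other gene set was compared. In the 19 comparisons over arms and days, 18 members passed in none, among them Mrpl12, Mrpl45, which lies at the exit of the peptide tunnel by the inner membrane, Mrpl58, a peptidyl-tRNA hydrolase built into the large subunit, and the paralog Mrps18c. Genes outside the family that passed in none were not counted, so this number is no result about the members.

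Other genes of mitochondrial gene expression give the setting. Their counts stand beside the shares of all genes: 20.9% higher and 21.9% lower without Esrrb, 20% and 16.3% without Glis1, 14.4% and 9.13% without Jdp2, and 22.3% and 19.5% without Sall4. A count near those shares is no result about its list. The 13 mRNAs of the mitochondrial genome, which the mitoribosome translates, had larger median changes than its protein genes. Without Esrrb 10 fell and 0 rose (median log2 change -0.55), without Glis1 8 rose and 0 fell (0.62), without Jdp2 8 fell and 0 rose (-0.54) and without Sall4 10 rose and 0 fell (0.52). The complex I gene mt-Nd2 changed by -0.68 ± 0.11 without Esrrb (edgeR adjusted p = 6.97e-06), by 0.64 ± 0.10 without Glis1 (6.74e-06), by -0.58 ± 0.11 without Jdp2 (0.000169) and by 0.62 ± 0.10 without Sall4 (1.02e-05). Their summed CPM had a median of 42508 in JEGS, 28559 without Esrrb, 51755 without Glis1, 31848 without Jdp2 and 52467 without Sall4. On day 1, relative to day 0, 7 of the 13 rose, against 7.59% of all genes higher and 6.32% lower.

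Nuclear genes of mitochondrial translation moved in both directions. Of 13 translation factors tested, 3 rose and 2 fell without Esrrb, 3 rose without Glis1, 3 fell without Jdp2, and 2 rose and 3 fell without Sall4. Gfm1, the mitochondrial elongation factor G, changed by -0.64 ± 0.10 without Esrrb (edgeR adjusted p = 8.24e-06) and by 0.49 ± 0.09 without Glis1 (0.000109), and Tufm, the elongation factor Tu, fell with the day (slope -0.07 ± 0.02, edgeR adjusted p = 0.00246). Of 26 genes of mitoribosome assembly and rRNA modification, 4 rose and 2 fell without Esrrb, 3 rose and 2 fell without Glis1, 1 fell without Jdp2, and 5 rose and 2 fell without Sall4. Mterf4, which brings the rRNA methyltransferase Nsun4 to the large subunit, changed by -1.76 ± 0.26 without Jdp2 (edgeR adjusted p = 7.83e-06) and by 2.45 ± 0.20 without Sall4 (1.19e-10). Nsun4 itself fell without Esrrb (-0.76 ± 0.15, edgeR adjusted p = 0.000159).

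Of 17 mitochondrial aminoacyl-tRNA synthetases, 3 rose and 2 fell without Esrrb, 2 rose and 1 fell without Glis1, 1 fell without Jdp2, and 2 rose and 3 fell without Sall4. Of the 5 mitoribosomal proteins that carry no Mrp symbol, 2 rose without Esrrb (Gadd45gip1 by 0.41 and Dap3 by 0.31), 0 changed without Glis1, 2 fell without Jdp2, and 1 rose and 1 fell without Sall4. Of 20 genes of mitochondrial transcription and RNA stability, 3 rose and 4 fell without Esrrb, 4 rose without Glis1, 3 fell without Jdp2 and 3 rose and 3 fell without Sall4. Lrpprc, which stabilises mitochondrial mRNAs, passed in all 4 arms, by -0.48 ± 0.10 without Esrrb (edgeR adjusted p = 0.000171), 0.33 ± 0.09 without Glis1 (0.00531), -0.30 ± 0.09 without Jdp2 (0.0188) and 0.46 ± 0.09 without Sall4 (0.000147). The median changes of the mitochondrial mRNAs had the same signs, in 4 contrasts that sum to 0, and a link to Lrpprc was not tested.

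Of 27 genes of protein import, through which every mitoribosomal protein enters, 8 fell and 0 rose without Esrrb, 4 rose and 3 fell without Glis1, 4 fell without Jdp2, and 11 rose and 1 fell without Sall4. Timm8b, a small chaperone of the intermembrane space, changed by -0.59 ± 0.10 without Esrrb (edgeR adjusted p = 2.54e-05) and by 0.77 ± 0.09 without Sall4 (9.29e-08). With the day 11 import genes fell and 1 rose, against 15.8% of all genes falling and 15.4% rising. Timm17a of the inner-membrane channel had a slope of -0.11 ± 0.02 a day (edgeR adjusted p = 4.29e-05). Of 18 regulators of mitochondrial biogenesis, a list that includes the delivered Esrrb, 8 rose and 4 fell without Esrrb, 4 rose and 1 fell without Glis1, 1 rose and 2 fell without Jdp2, and 4 rose and 9 fell without Sall4. Ppara, a nuclear receptor of fatty acid oxidation, rose by 5.14 ± 0.31 without Glis1 (edgeR adjusted p = 1.39e-13), and Mycn rose by 2.49 ± 0.25 without Esrrb (8.59e-09) and changed by -1.75 ± 0.32 without Sall4 (7.16e-05).

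Cell state markers moved with the arms as well. All 8 markers of proliferating cells rose without Esrrb and without Jdp2, all 8 fell without Sall4, and 4 fell without Glis1. Their summed CPM ran from 904 to 1892 in JEGS, 1136 to 1879 without Esrrb, 332 to 842 without Glis1, 804 to 1450 without Jdp2 and 172 to 1050 without Sall4. Of the 8, 7 were higher in JEGS than in the mean of the leave-out arms, where 3.21% of all genes were higher and 0.849% lower. Fibroblast markers were present in every library, with Col1a1 at 47.6 TPM or more and Vim at 406 TPM or more, but Dcn was at most 10.7 TPM and Lum at most 2.5 TPM. Of the 10, 1 rose and 3 fell without Esrrb, 3 rose and 4 fell without Glis1, 3 rose and 4 fell without Jdp2, and 6 rose and 0 fell without Sall4. Epithelial markers (5) rose in all 5 cases without Jdp2 and fell in all 5 without Sall4, 2 rose without Esrrb and 2 fell without Glis1. Of 5 endothelial markers 3 rose without Esrrb, 1 rose and 1 fell without Glis1, 4 rose without Jdp2 and 4 fell without Sall4. Of 6 macrophage markers 2 fell without Esrrb, 1 rose without Glis1, 1 fell without Jdp2 and 1 rose without Sall4, with Adgre1 at 0 in 19 libraries and Ptprc in 17. The part of these markers in the members' results was not tested.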

How the data were processed

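RNA of 35 mouse libraries was sequenced on a NextSeq 500 and, per the submitters' processing notes, handled with bcl2fastq, Bowtie2 and RSEM on mm10; versions, annotation and strandedness are not given in the sources used here. The deposited files, per the file headers, hold for each gene the authors' RSEM estimates: expected counts, TPM and FPKM. The FPKM values deposited were not used here.

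Arms were taken from the sample titles, since the treatment label gives all 4 factors to every sample. Gene symbols were matched by Ensembl ID for 54723 of 54752 genes. Coordinates and overlaps come from a GRCm38 annotation. Expected counts were rounded to whole numbers, genes with at least 1 CPM in at least 3 libraries were kept, and edgeR 4.0.16 (R 4.3.3) was fitted with TMM scaling and quasi-likelihood tests. The first fit held the 32 leave-out libraries with arm and day as factors (18135 genes), the second the 15 libraries of days 2, 4 and 6 (16603 genes), and the third a slope with the day in each arm. P-values were adjusted over all genes tested, and an adjusted p under 0.05 was called. The SE printed after ± is approximate: the size of the log2 change over the square root of the quasi-likelihood F statistic. All 78 members passed the filter. Printed CPM values use TMM factors over the 35 libraries. The fits were checked on simulated counts. DESeq2 1.42.0 and limma 3.58.1 on log2(TPM + 1) were alternatives, beside other scalings, no filter, effective length offsets, other day terms, all 35 libraries and leaving out each library or day. The slopes within single arms were added after the data had been seen.

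One count is worth 0.277 to 0.79 CPM. Genes were named by rule: up to 5 members in each direction for arms, day 1 and the common slope and up to 2 elsewhere, by size of change among those called with at least 5 CPM, the 5 highest and the 5 lowest by TPM, a few by role, and the 3 most and the 3 least like the family. The members and lists were chosen with earlier results of these data known.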

Additional observations from a re-analysis of the deposited data

Results flagged for a closer look

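Each of the 46 named members, the summed CPM and the ratio of the subunits were looked at in the 4 leave-out arms of 8 libraries, 192 groups in all. A library was flagged when its gap to the nearest other exceeded 0.526 of the range, Dixon's critical value for 8, and 19 were found. That value assumes replicates, whereas the 8 libraries of an arm are different days. A change with the day can therefore set a library apart, and the 19 were not set against a chance rate. Of the 19, 10 were in the arm without Glis1. There, day 0 stood apart in 4 members: Mrpl12 (66.6 CPM, nearest 114), Mrpl38 (60.6, nearest 103) and Mrps18a (29.1, nearest 51.7) were low, and Mrps15 (69.5, nearest 46.0) was high. Its day 1 library was high in Mrpl19 (47.0 CPM, nearest 34.6), Mrpl3 (55.0, nearest 48.1), Mrpl50 (48.5, nearest 32.05) and Mrps7 (94.0, nearest 64.5). Its day 3 library was high in Mrpl53 (38.7 CPM, nearest 31.0) and Mrps21 (79.8, nearest 56.5).

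Without Esrrb, day 0 was high in Mrpl52 (71.4 CPM, nearest 50.2) and Mrps18c (19.0, nearest 11.3), day 1 was high in Mrpl34 (49.7, nearest 40.0) and day 4 was low in Mrps12 (22.5, nearest 32.9). Without Jdp2, day 0 was high in Mrps15 (65.5 CPM, nearest 40.8), and day 1 was high in Mrps12 (56.5, nearest 38.6) and Mrps27 (44.7, nearest 36.8). Without Sall4, Mrps24 was low on day 0 (39.6 CPM, nearest 60.1) and Mrps7 high on day 1 (111, nearest 72.0). Mrps15 was thus set apart by a high day 0 library in 2 arms and Mrps7 by a high day 1 library in 2 arms.

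A difference in slope with the day between an arm and the mean of the other 3 passed edgeR's test for the named Mrps6 (-0.21 log2 units a day) and Mrpl54 (-0.18) without Esrrb, and for Mrps18b (0.16) and Mrpl17 (0.13) without Glis1.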

How the results depend on the processing

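No paired analysis was possible because the labels give no replicate numbers; day, which the arms share, was instead a factor of the fits, and without that term the counts were 18 without Esrrb (25), 14 without Glis1 (18), 7 without Jdp2 (8) and 19 without Sall4 (26). Without a filter, 14 members were called without Esrrb (25 in the fit reported), 9 without Glis1, 14 without Sall4, 2 in JEGS against the arm without Esrrb (1), 2 (5) and 1 (2) for the slope differences without Esrrb and Glis1, and 1 for the own slope without Sall4 (2). Effective length offsets gave 11 without Glis1, 13 without Sall4, 0 in JEGS against the arm without Esrrb, 2 against the arm without Sall4 (8), 1 and 0 for the slope differences without Esrrb and Glis1, and 13 (23) and 1 (2) for the own slopes without Esrrb and Jdp2. Total counts gave 11 on day 1 (6), 0 in JEGS against the arm without Esrrb, 2 and 0 for the slope differences and 13 and 1 for the own slopes, in the same orders. Limma on log2(TPM + 1) gave 0 in JEGS against the arm without Esrrb, 1 and 0 for the slope differences and 15 and 1 for the own slopes. DESeq2 gave 13 without Jdp2 (8), 2 in JEGS against the arm without Esrrb, 8 and 1 for the slope differences without Esrrb (5) and Sall4 (0), and 4 for the own slope without Jdp2 (2). DESeq2 size factors gave 3, and upper-quartile scaling 3 and 1, for the slope differences without Esrrb and Glis1. Days 1 to 7 gave 14 without Jdp2, 1 for the slope difference without Esrrb (higher, where the 5 reported were lower), 1 for that without Glis1 and 8 for the own slope without Jdp2. Dropping the day term, or fitting all 35 libraries, gave 0 in JEGS against the arm without Esrrb. The causes were not tested.

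Leaving out 1 library or 1 day gave 17 to 27 calls without Esrrb, 12 to 26 without Glis1, 6 to 14 without Jdp2, 18 to 34 without Sall4, 4 to 15 on day 1, and 15 to 31 for the common slope. In JEGS it gave 0 to 2 against the arm without Esrrb, 0 to 4 without Glis1 and 0 to 11 without Sall4. Slope differences gave 0 to 9 without Esrrb, 0 to 2 without Glis1 and 0 to 1 without Sall4, and own slopes 10 to 26 without Esrrb, 0 to 8 without Jdp2 and 0 to 2 without Sall4. Mrps23 in JEGS against the arm without Esrrb changed sign, to -0.22 (limma) and -0.064 (effective length offsets). For single members named, 2641 values under alternatives kept direction and call, and 276 lost the call. No filter moved the median log2 change of all genes to -0.16 without Esrrb and -0.12 in JEGS against the mean; limma moved it to 0.10 in JEGS against the arm without Glis1. With a median member count of 47 to 122 a library, small changes of low members could not be detected.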
